A study of Mus musculus with 16 samples.

Results

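The genes described here are 45 interferon-stimulated antiviral genes of the mouse, taken by symbol from a list and matched to the Ensembl identifiers of the deposited count table. The list was chosen with earlier results of these data known. The study itself lists several of them, such as Isg15, Ifit1, Irf7 and Stat2, as differentially expressed in these 4T1 samples. Counts of called members are thus a description and not independent support. All 45 were found among its 33072 genes. They were read in 4T1 and 67NR cells, both from a spontaneous mammary carcinoma of a BALB/c mouse, of which 4T1 is labelled metastatic and 67NR non-metastatic. Subconfluent cultures received 15 µM of CIX, a competitive inhibitor of cytosolic phospholipase A2α (cPLA2α), or the DMSO vehicle for 24 h. Each of the 4 groups (4T1 with vehicle, 4T1 with CIX, 67NR with vehicle and 67NR with CIX) held 4 samples, 16 in all. Both lines are cultured carcinoma lines with no transgene or deletion named in the labels, and each line is a single cell line, so a difference between the lines is not a difference between metastatic and non-metastatic tumors in general.

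Type I interferon binds the receptor IFNAR, whose Janus kinases activate STAT2. With IRF9 it is part of the complex ISGF3, which binds the interferon-stimulated response element (ISRE) in promoters of antiviral genes. Their products cut or edit viral RNA, block entry and budding of virus, deplete nucleotides or modify proteins with ISG15, and many tumor lines keep a basal level of these genes without added interferon.

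Estimated counts summed to between 21715700 and 29450629 in a sample. The smallest level taken as detected, 3 counts, lay between 0.107 and 0.137 CPM (counts scaled to library size, with TMM factors over all 16 samples), a floor that covers counting error only. Mammary epithelial markers were Krt8, Krt18, Epcam, Cdh1 and Cldn3. In 4T1 their summed level was 2464 to 2652 CPM with vehicle and 2563 to 2810 CPM with CIX. In 67NR it was 1.07 to 5.27 CPM, and there Krt8 had 20 to 58 counts in each sample and Epcam 8 or fewer. In 4T1 Epcam was the only epithelial marker called, falling from 311 to 318 CPM with vehicle to 175 to 203 CPM with CIX (limma-voom adjusted p = 0.000128). Krt18 went the other way without a call, from 1015 to 1111 CPM with vehicle to 1172 to 1230 CPM with CIX. The groups of Krt8, Cdh1 and Cldn3 overlapped. The summed level of 5 mesenchymal markers, most of it Vim and Fn1, was 2485 to 3298 CPM with vehicle and 4306 to 5209 CPM with CIX in 4T1, and 6023 to 6976 and 9157 to 10029 CPM in 67NR. Single genes did not all follow the sum, and in 67NR Pdgfrb was at 41.9 to 60.2 CPM with vehicle and at 28.7 to 34.9 CPM with CIX, while the Cdh2 groups overlapped. Zeb1, Cdh2 and Pdgfrb had 18 counts or fewer in every 4T1 sample. Of 8 leukocyte markers, Adgre1 had 0 counts in all samples, and the summed level of the list was 1.85 to 2.40 CPM in vehicle treated 4T1 cells, 0.858 to 1.50 CPM in CIX treated 4T1 cells, 0.356 to 0.752 CPM in vehicle treated 67NR cells and 0.385 to 2.28 CPM in CIX treated 67NR cells, with 2, 3, 1 and 2 of the 8 at 0 in all samples of the group. The part of these lists in the results was not tested. These are bulk cultures, in which fewer expressing cells and less RNA per cell cannot be told apart.

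Promoters of 37 of the 45 genes were matched in the RefSeq promoter table of GRCm38.p6, which holds 250 bases before and 50 after each start. The table had no entry for Oas2, Mx1, Mx2, Usp18, Ifi27, Ifi27l2a, Tor3a and Rtp4. The ISRE core, which is GAAA, any 2 bases and GAAA again, was searched on both strands with overlapping matches counted. It was present in a promoter of 17 of the 37 genes (45.9%), as compared to 3.99% of all 27025 genes of the table and 3.44% of its 32851 promoters. The shorter STAT site TTCNNNGAA was present in 9 of the 37 genes (24.3%) and in 9.55% of all genes. The promoters below, written 5′ to 3′ on the strand of the gene with the ISRE core in capitals, belong to genes on which the results turn. Isg15 holds 3 overlapping copies, and Oas1a and Oas1g, whose reads are hard to separate, carry the same stretch close to the start. Ifit1 holds 2 copies in the reverse orientation, Ddx60 holds 2 separate copies, and the copies of Trim21 lie just after the start.
Isg15 promoter, chr4:156200769-156201068, minus strand: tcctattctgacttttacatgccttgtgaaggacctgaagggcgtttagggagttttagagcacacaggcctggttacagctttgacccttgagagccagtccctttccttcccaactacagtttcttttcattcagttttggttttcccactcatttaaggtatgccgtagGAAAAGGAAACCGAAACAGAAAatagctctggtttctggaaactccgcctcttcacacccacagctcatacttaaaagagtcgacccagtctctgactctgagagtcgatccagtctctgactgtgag
Ifit1 promoter, chr19:34640639-34640938, plus strand: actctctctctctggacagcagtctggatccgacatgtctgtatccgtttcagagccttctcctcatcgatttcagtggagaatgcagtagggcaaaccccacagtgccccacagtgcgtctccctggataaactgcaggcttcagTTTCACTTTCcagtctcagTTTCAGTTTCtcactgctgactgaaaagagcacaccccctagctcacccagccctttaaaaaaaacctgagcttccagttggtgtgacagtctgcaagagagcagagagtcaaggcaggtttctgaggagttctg
Oas1a promoter, chr5:120907476-120907775, minus strand: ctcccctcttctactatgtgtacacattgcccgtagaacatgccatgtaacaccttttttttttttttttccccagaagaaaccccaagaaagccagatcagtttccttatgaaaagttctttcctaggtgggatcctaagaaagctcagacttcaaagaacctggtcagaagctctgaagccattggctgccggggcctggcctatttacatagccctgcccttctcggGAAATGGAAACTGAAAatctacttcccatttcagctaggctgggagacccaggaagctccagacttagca
Oas1g promoter, chr5:120887564-120887863, minus strand: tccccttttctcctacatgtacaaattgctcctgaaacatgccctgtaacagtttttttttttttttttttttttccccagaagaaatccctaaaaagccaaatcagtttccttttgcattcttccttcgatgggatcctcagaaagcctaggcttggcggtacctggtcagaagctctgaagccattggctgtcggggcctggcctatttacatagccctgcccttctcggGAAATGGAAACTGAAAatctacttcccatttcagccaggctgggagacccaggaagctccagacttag
Ddx60 promoter, chr8:61927837-61928136, plus strand: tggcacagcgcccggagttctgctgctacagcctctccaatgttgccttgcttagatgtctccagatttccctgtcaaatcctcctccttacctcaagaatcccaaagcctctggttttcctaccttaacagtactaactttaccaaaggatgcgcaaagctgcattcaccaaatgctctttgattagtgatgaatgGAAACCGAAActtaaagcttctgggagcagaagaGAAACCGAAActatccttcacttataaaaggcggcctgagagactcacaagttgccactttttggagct
Trim21 promoter, chr7:102565433-102565732, minus strand: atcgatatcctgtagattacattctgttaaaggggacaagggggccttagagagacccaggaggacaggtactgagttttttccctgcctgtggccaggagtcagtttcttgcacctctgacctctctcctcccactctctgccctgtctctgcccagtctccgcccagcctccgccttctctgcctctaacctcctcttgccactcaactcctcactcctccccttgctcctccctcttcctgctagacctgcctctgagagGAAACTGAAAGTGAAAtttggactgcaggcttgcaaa
The copies in Isg15 begin 78, 72 and 66 bases before the start, those in Ifit1 104 and 85 bases before it, those in Oas1a 20 and 14 bases before it, those in Oas1g 18 and 12 bases before it and those in Ddx60 53 and 19 bases before it. In Trim21 they begin at bases 14 and 20 after the start. The remaining genes with a copy were Stat2, Ifit3, Ifit3b, Oas3, Ifitm2, Ifitm3, Bst2, Rsad2, Trim30a, Lgals9 and Shisa5. No match was found in the windows of Irf7, Irf9, Xaf1, Samd9l or Lgals3bp, which says only that these letters are not there.

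In vehicle treated 4T1 cells the 45 genes together were at more than double the level of any other group, and CIX treated 4T1 cells were near 67NR cells. Their summed level in TPM (transcript abundance corrected for gene length) was 4776 ± 596 in vehicle treated and 2015 ± 110 in CIX treated 4T1 cells, and it was 1814 ± 84.3 in vehicle treated and 1532 ± 48.7 in CIX treated 67NR cells (SD, n = 4 each). A large share of this sum came from few abundant genes, with Ifitm3 at 1479 TPM, Ifi27 at 655 TPM and Ifitm2 at 411 TPM on average in vehicle treated 4T1 cells. The lowest genes there, by the same scale, were Oas2 at 1.05 TPM and Ifi27l2a at 2.08 TPM.

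**Figure D1:**
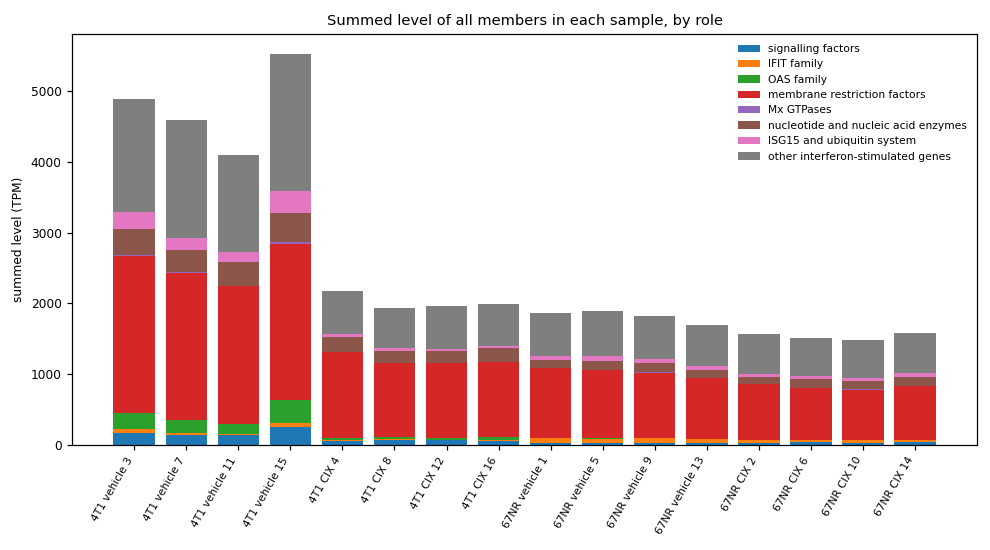
Summed level of the 45 genes in TPM (bars) in each of the 16 samples, stacked by the role of the genes. The 4 vehicle treated 4T1 samples stand between 4100 and 5525 TPM, and the other 12 samples between 1477 and 2176 TPM.

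Between CIX and vehicle treated 4T1 cells, 40 of the 45 genes passed the filter on low values, and all 40 had a negative log2 fold change. Of these, 20 fell and 0 rose at a limma-voom adjusted p-value below 0.001. Over all 11676 genes tested, 3.96% fell and 5.33% rose. The median log2 fold change of the 40 genes was -1.87, from -4.57 for Ifi44 to -0.13 for Lgals9, whereas that of all tested genes was -0.01. At an adjusted p-value below 0.05, 38 of the 40 were lower and 0 higher (20.8% and 21.9% of all genes). In 37 of them every CIX sample lay below every vehicle sample, the exceptions being Ifitm2, Lgals9 and Tor3a. This was so for 18.7% of all genes, and the opposite order was seen in 0 of the 40 and in 21.2% of all genes. The Wald test of DESeq2 called 36 of the 40 lower, as it did 12.5% of all genes. When each sample was left out in turn, limma-voom called between 13 (without CIX sample 8, where 1.32% of all genes were called lower) and 21 (without vehicle sample 11, where this was 2.21%).

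**Figure D2:**
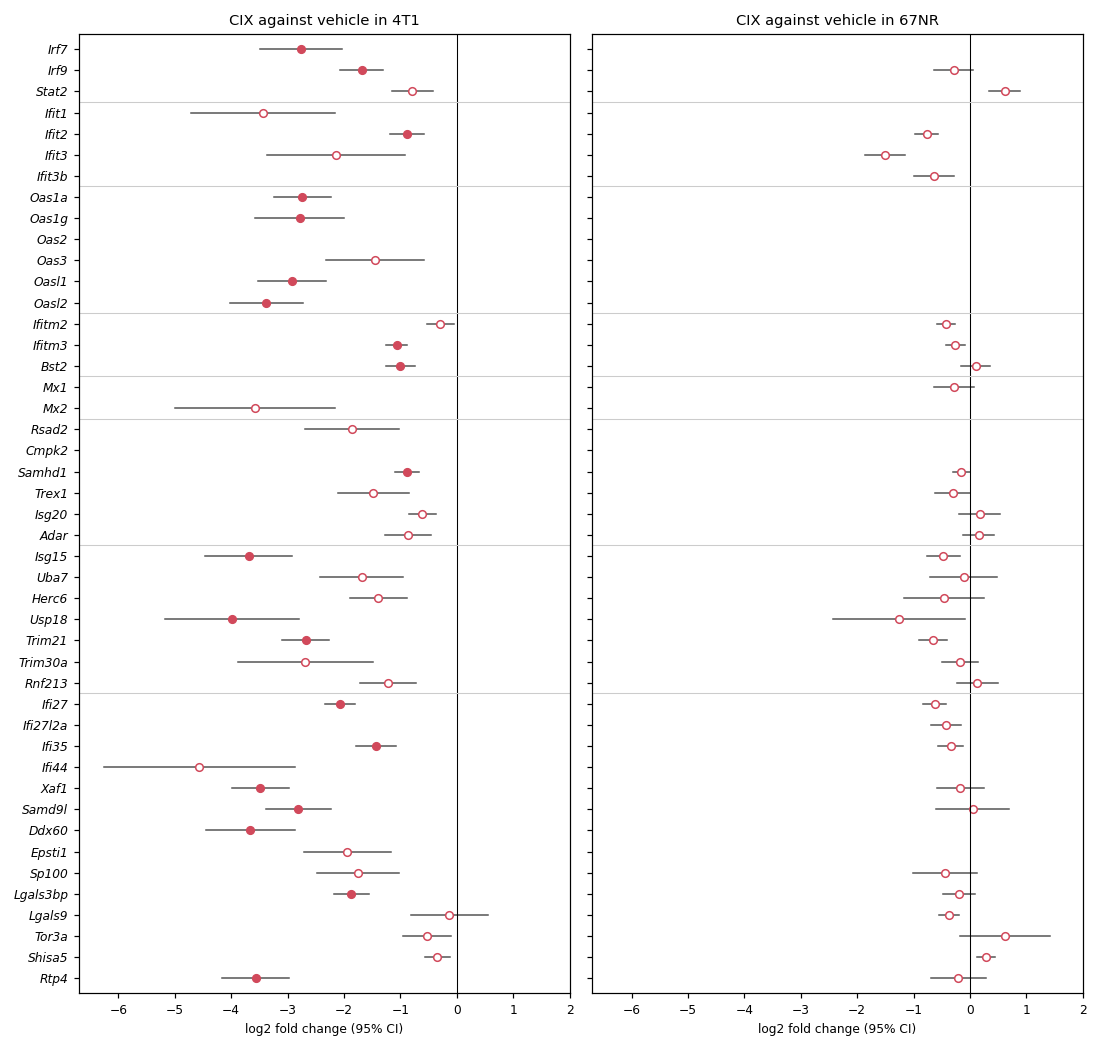
Log2 fold change (x axis) of each of the 45 genes (y axis, grouped by role with grey lines between the groups) for CIX against vehicle in 4T1 (left) and 67NR (right), with 95% confidence intervals. Filled points passed a limma-voom adjusted p-value of 0.001, open points did not, and genes without a point were not tested. All 40 points in 4T1 lie below 0, and 20 are filled, whereas 0 of the 31 points in 67NR are filled.

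In the following, values of single samples are given in CPM in the order of sample numbers, 3, 7, 11 and 15 for vehicle and 4, 8, 12 and 16 for CIX in 4T1, and 1, 5, 9 and 13 for vehicle and 2, 6, 10 and 14 for CIX in 67NR. Fold changes are from limma-voom with standard errors (SE), on the log2 scale. Counts of called members in each role stand against 3.96% of all tested genes that fell and 5.33% that rose in 4T1.

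The signalling factors were Irf7, Irf9 and Stat2. Irf7 (ENSMUSG00000025498, chr7:141262706-141266481 on the minus strand of GRCm38) encodes the factor that amplifies transcription of type I interferon genes. Its level was 48.4, 33.1, 43.8 and 81.0 CPM in vehicle treated and 8.85, 9.70, 5.33 and 6.44 CPM in CIX treated 4T1 cells, so that the highest CIX sample was well below the lowest vehicle sample. The log2 fold change was -2.76 (SE 0.33, limma-voom adjusted p = 0.000278), and the call held in 5 of 8 fits with 1 sample omitted (0.00111 to 0.00165 where lost). In 67NR cells Irf7 was near 1 CPM, from 0.712 to 1.44 CPM with vehicle and from 0.638 to 1.04 CPM with CIX, and it did not pass the filter there. Irf9 (ENSMUSG00000002325, chr14:55603571-55610030 on the plus strand of GRCm38), the DNA-binding subunit of ISGF3, stood at 69.3, 62.7, 50.2 and 85.9 CPM with vehicle and at 19.3, 19.3, 21.8 and 22.3 CPM with CIX in 4T1. It fell by 1.69 on the log2 scale (SE 0.17, limma-voom adjusted p = 0.000141) a call that held in 8 of 8 fits with 1 sample omitted. Levels in 67NR were lower, at 7.18 ± 0.994 CPM under vehicle and 5.90 ± 0.757 CPM after CIX (SD, n = 4 each), with overlapping treatments.

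Stat2 (ENSMUSG00000040033, chr10:128270559-128292849 on the plus strand of GRCm38), the transactivating subunit of ISGF3, differed from its partners. In 4T1 it stood at 100.4, 84.0, 79.1 and 130.2 CPM with vehicle and at 50.7, 62.1, 62.0 and 53.0 CPM with CIX, a log2 fold change of -0.79 that did not pass the threshold (SE 0.17, limma-voom adjusted p = 0.00455). The 67NR levels were 25.0, 26.1, 22.7 and 25.2 CPM with vehicle and 36.0, 41.0, 31.3 and 46.1 CPM with CIX, every CIX sample above every vehicle sample. That log2 fold change of 0.61 did not pass the threshold either (SE 0.12, limma-voom adjusted p = 0.0106). The difference between both responses, tested as an interaction, was -1.40 (SE 0.22, limma-voom adjusted p = 0.000252), and it held in 16 of 16 fits with 1 sample omitted. Stat2 was thus the signalling factor with all CIX samples below the vehicle samples in 4T1 and above them in 67NR.

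The IFIT genes, whose products bind viral RNA and block its translation, were read in both lines. Ifit2 (ENSMUSG00000045932, chr19:34550694-34576419 on the plus strand of GRCm38) was the highest of them on the TPM scale in vehicle treated 4T1 cells. Its level was 27.9, 26.8, 23.3 and 29.6 CPM with vehicle and 12.4, 15.7, 14.8 and 16.1 CPM with CIX in 4T1, and 94.4, 88.4, 98.1 and 78.6 CPM with vehicle and 60.1, 51.6, 52.7 and 48.9 CPM with CIX in 67NR. In both lines all CIX samples were below all vehicle samples, and 67NR was above 4T1 with either treatment. Ifit2 fell in 4T1 by 0.89 on the log2 scale (SE 0.13, limma-voom adjusted p = 0.000837), a call that was lost whichever sample was omitted. In 67NR its log2 fold change was -0.77 (SE 0.09, limma-voom adjusted p = 0.00134), and the interaction was -0.12 with a 95% confidence interval of -0.45 to 0.21.

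Ifit1 (ENSMUSG00000034459, chr19:34640871-34650009 on the plus strand of GRCm38) varied among the vehicle samples of 4T1, at 33.1, 13.9, 10.9 and 34.8 CPM, where samples 3 and 15 were well above the others. With CIX it was at 1.33, 1.24, 3.11 and 2.41 CPM, below all vehicle samples, a log2 fold change of -3.44 that missed the threshold (SE 0.57, limma-voom adjusted p = 0.00139). Levels in 67NR were 5.22, 3.69, 2.81 and 1.78 CPM with vehicle and 0.424, 0.0412, 0.228 and 0.348 CPM with CIX, again with no overlap, but too low for the filter. Ifit3 had a log2 fold change of -2.13 in 4T1 (SE 0.55) and -1.51 in 67NR (SE 0.16), the latter the furthest below 0 of all members tested in 67NR. It was at 8.55, 8.14, 8.52 and 8.16 CPM with vehicle and at 3.97, 2.72, 2.37 and 2.87 CPM with CIX in 67NR, where the adjusted p-value of limma-voom, 0.00111, became 7.25e-04 without CIX sample 2. Ifit3b was left out of the test in 4T1, where it was at 4.91 to 15.5 CPM with vehicle and 0.566 to 1.37 CPM with CIX. Reads of Ifit3 and Ifit3b could have been exchanged, since 61.8% and 55.2% of their 31-base words occur in transcripts of another gene.

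The OAS genes encode synthetases of 2′-5′ oligoadenylate, which activates RNase L, and their relatives. In 67NR 0 of the 6 passed the filter, whereas 5 of 6 did in 4T1 and 4 of these fell (3.96% of all tested genes fell there). Oas1a (ENSMUSG00000052776, chr5:120896256-120907521 on the minus strand of GRCm38) was at 106, 78.4, 66.3 and 125 CPM in vehicle treated and at 15.6, 14.2, 12.9 and 12.8 CPM in CIX treated 4T1 cells, which is 6.69-fold lower (log2 fold change -2.74, SE 0.23, limma-voom adjusted p = 6.71e-05). The 67NR samples held 7, 9, 10 and 0 counts with vehicle and 16, 16, 10 and 13 counts with CIX. In CPM every CIX sample of 67NR was above every vehicle sample, with at most 16 counts.

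Oasl2 (ENSMUSG00000029561, chr5:114896936-114912234 on the plus strand of GRCm38) was at 72.4, 63.4, 51.9 and 115 CPM with vehicle and at 6.10, 7.72, 6.76 and 7.77 CPM with CIX in 4T1, 10.4-fold lower (log2 fold change -3.38, SE 0.29, limma-voom adjusted p = 7.04e-05). In 67NR Oasl2 had 11, 6, 10 and 0 counts with vehicle and 1, 0, 0 and 0 counts with CIX. Oas1g and Oasl1 fell in 4T1 with log2 fold changes of -2.79 and -2.91, but the call of Oas1g held in only 2 of 8 fits with 1 sample omitted (limma-voom adjusted p = 0.00118 to 0.00204 where lost). Oas1g shares 55.1% and Oas1a 68.8% of its 31-base words with other genes, so that their levels are uncertain against each other. Oas1g had 0 counts in all 67NR samples with CIX, and CIX treated 4T1 cells were at least 137-fold higher (floor of 3 counts over the group). Oas3, at 43.9 ± 22.2 CPM under vehicle and 15.5 ± 4.81 CPM after CIX in 4T1 (SD, n = 4 each), missed the threshold (log2 fold change -1.45, limma-voom adjusted p = 0.0138). Oas2 was left out of the test, at 51, 18, 36 and 102 counts with vehicle and 7, 9, 7 and 17 counts with CIX, each CIX sample being below each vehicle sample.

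**Figure D3:**
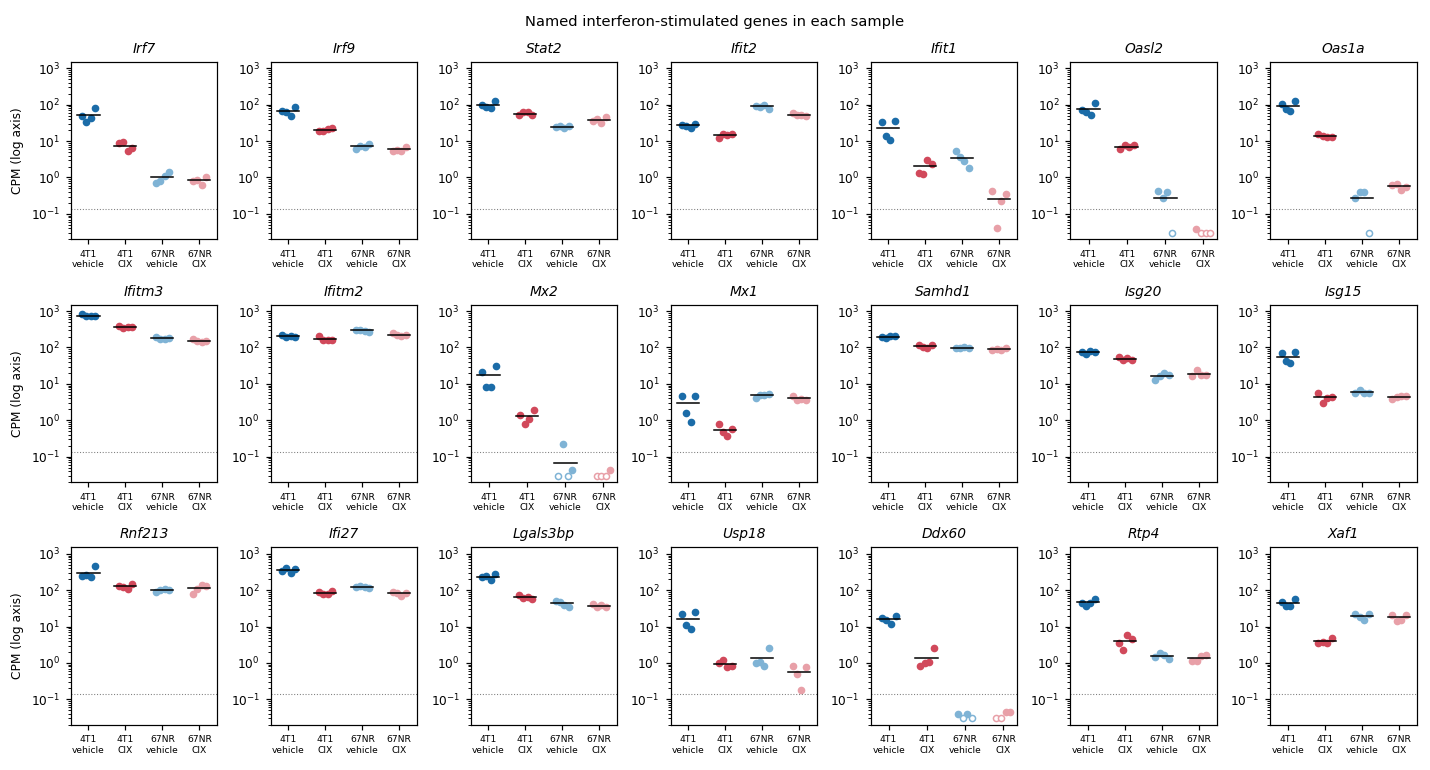
CPM (log axis) of 21 members in each sample of the 4 groups (x axis). Filled points are samples, open points at the bottom are samples with 0 counts, bars are group means where these are above the lower edge, and the dotted line is the floor of 3 counts. Oasl2, Oas1a, Mx2 and Ddx60 are at or near the floor in 67NR, and in most panels the CIX samples of 4T1 stand well below the vehicle samples.

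The membrane restriction factors, which block virus entry or release, together made up the largest share of the summed level, and of the 3 genes Ifitm3 and Bst2 fell in 4T1. Ifitm3 (ENSMUSG00000025492, chr7:141009586-141010770 on the minus strand of GRCm38), which inhibits fusion of virus with endosomes, was at 812, 748, 717 and 741 CPM with vehicle and at 393, 335, 372 and 357 CPM with CIX in 4T1. It fell 2.10-fold, with little spread in either group (log2 fold change -1.07, SE 0.08, limma-voom adjusted p = 5.08e-05). Levels in 67NR were 190.2, 175, 170.2 and 181 CPM and 167, 147, 138 and 155 CPM, with no overlap and a log2 fold change of -0.26 (SE 0.07, limma-voom adjusted p = 0.0417). Ifitm2 (ENSMUSG00000060591, chr7:140954837-140955987 on the minus strand of GRCm38), its neighbor, was at 215, 197, 209 and 190.1 CPM with vehicle and at 203, 156, 156 and 162 CPM with CIX in 4T1, with overlapping groups and a log2 fold change of -0.29 (95% confidence interval -0.53 to -0.05). In 67NR its log2 fold change was -0.43 (95% confidence interval -0.58 to -0.27), and the interaction of 0.14 (95% confidence interval -0.13 to 0.40) did not pass. Of its 31-base words 55.5% occur in another gene, and 20.5% of those of Ifitm3. Bst2, or tetherin, which holds budding virus at the membrane, fell in 4T1 from 101 ± 13.5 to 51.1 ± 3.58 CPM (SD, n = 4 each, log2 fold change -0.999), a call that held in 4 of 8 fits with 1 sample omitted.

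The Mx genes encode dynamin-like GTPases that trap viral ribonucleoproteins, and many laboratory strains, among them BALB/c, carry a defective Mx1 allele. Mx2 (ENSMUSG00000023341, chr16:97535308-97560900 on the plus strand of GRCm38), annotated as a polymorphic pseudogene, was at 21.5, 8.08, 8.26 and 30.7 CPM in vehicle treated and 1.37, 0.772, 1.11 and 1.89 CPM in CIX treated 4T1 cells. Vehicle samples 3 and 15 again stood above 7 and 11, and the log2 fold change of -3.57 missed the threshold (SE 0.63, limma-voom adjusted p = 0.00193). The 67NR samples had 0, 5, 0 and 1 counts with vehicle and 0, 0, 0 and 1 counts with CIX. Mx1 (ENSMUSG00000000386, chr16:97447035-97462907 on the minus strand of GRCm38) was read in both lines. It stood at 4.61, 1.57, 0.904 and 4.72 CPM with vehicle and 0.808, 0.472, 0.358 and 0.563 CPM with CIX in 4T1, where it did not pass the filter, and at 4.00, 4.89, 5.07 and 5.23 CPM with vehicle and 4.74, 3.71, 3.87 and 3.52 CPM with CIX in 67NR. The lines differed by -1.003 under vehicle (4T1 against 67NR, limma-voom adjusted p = 0.0845), with overlapping samples.

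Among the enzymes that act on nucleotides and nucleic acids, 5 of 6 were tested in 4T1 and only Samhd1 passed the threshold. Samhd1 (ENSMUSG00000027639, chr2:157097533-157135265 on the minus strand of GRCm38), a dNTP hydrolase, was at 189.8, 186, 211 and 202 CPM with vehicle and at 114, 105, 95.008 and 120.4 CPM with CIX in 4T1 (log2 fold change -0.88, SE 0.10, limma-voom adjusted p = 0.000205), and the call held in 5 of 8 fits with 1 sample omitted. CIX treated 4T1 cells were thereby near 67NR cells, which were at 96.7, 94.5, 101 and 99.7 CPM with vehicle and 86.3, 92.7, 83.8 and 94.0 CPM with CIX. Isg20 (ENSMUSG00000039236, chr7:78913424-78920396 on the plus strand of GRCm38), a 3′ exonuclease of RNA, was at 76.6, 67.5, 79.1 and 74.1 and 54.7, 44.5, 51.7 and 46.6 CPM in 4T1, with no overlap (log2 fold change -0.61, limma-voom adjusted p = 0.00166). The 67NR samples were lower and did not separate, at 12.9, 16.3, 19.8 and 16.999 CPM with vehicle and 16.4, 23.6, 17.4 and 17.9 CPM with CIX. Adar, the RNA-editing enzyme, and Rsad2, or viperin, had log2 fold changes of -0.87 and -1.86 in 4T1 with limma-voom adjusted p-values of 0.00415 and 0.00352. Trex1 was at -1.48 in 4T1 (limma-voom adjusted p = 0.00266), but 97.6% of its 31-base words occur in transcripts of Atrip, so that this value may belong to either gene.

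Cmpk2, a mitochondrial nucleotide kinase, had 0 counts in all 8 samples of 67NR. Vehicle treated 4T1 cells, at 579, 216, 181 and 665 counts, were at least 557-fold above vehicle treated 67NR cells, and CIX treated 4T1 cells, at 33, 15, 18 and 34 counts, at least 31.4-fold above CIX treated 67NR cells (floor of 3 counts over the group). In 4T1 each CIX sample lay below each vehicle sample. The filter removed Cmpk2 because all 4 CIX samples were below 1 TPM, and an unfiltered fit gave -3.93 on the log2 scale (limma-voom adjusted p = 0.00106).

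The genes of the ISG15 system, a ubiquitin-like modifier with its activating enzyme, ligase and protease, included the called members with the most negative log2 fold changes in 4T1, Usp18 and Isg15. Isg15 (ENSMUSG00000035692, chr4:156199424-156200818 on the minus strand of GRCm38), the modifier, was at 69.3, 42.0, 36.9 and 75.2 CPM with vehicle and at 5.70, 2.92, 4.19 and 4.27 CPM with CIX, 12.9-fold lower (log2 fold change -3.69, SE 0.35, limma-voom adjusted p = 0.000106). Levels in 67NR were 5.74, 6.89, 5.59 and 5.48 CPM with vehicle and 3.81, 4.29, 4.65 and 4.52 CPM with CIX, and the CIX samples were the lower ones there too, with a log2 fold change of -0.47 (SE 0.13, limma-voom adjusted p = 0.0384). CIX treated 4T1 cells overlapped with 67NR cells. Usp18 (ENSMUSG00000030107, chr6:121245906-121270917 on the plus strand of GRCm38), which removes ISG15 and restrains the interferon receptor, was at 22.3, 10.7, 8.43 and 25.2 CPM with vehicle and at 0.970, 1.24, 0.787 and 0.845 CPM with CIX in 4T1. Its log2 fold change of -3.99 (SE 0.53, limma-voom adjusted p = 0.000472) was called in 2 of 8 fits with 1 sample omitted.

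The activating enzyme Uba7 and the ligase Herc6 did not pass in 4T1, with log2 fold changes of -1.68 and -1.39 and limma-voom adjusted p-values of 0.00317 and 0.00128. Trim21, an intracellular antibody receptor and ubiquitin ligase, fell from 20.7, 25.0, 24.8 and 24.4 to 5.01, 3.65, 3.68 and 2.82 CPM in 4T1 (log2 fold change -2.68, SE 0.18). Its promoter is the one above with the ISRE core after the start. In 67NR the groups were separate as well, at 12.0, 12.4, 10.6 and 10.4 CPM with vehicle and 7.36, 8.00, 6.33 and 7.44 CPM with CIX. Rnf213 (ENSMUSG00000070327, chr11:119393100-119487418 on the plus strand of GRCm38), a giant ubiquitin ligase, was at 242, 262, 233 and 467 CPM with vehicle and at 128, 123, 105 and 152 CPM with CIX in 4T1, with vehicle sample 15 apart from the others. Its log2 fold change was -1.22 (limma-voom adjusted p = 0.00225), and in 67NR its groups overlapped. Trim30a did not pass in 4T1 (log2 fold change -2.69, limma-voom adjusted p = 0.00344), and 67NR cells had more of it than 4T1 cells with CIX, at 22.6 ± 3.83 against 1.75 ± 0.662 CPM (SD, n = 4 each).

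Of the 14 other interferon-stimulated genes 13 were tested in 4T1, of which 7 fell (3.96% of all tested genes fell). Ifi27 (ENSMUSG00000064215, chr12:103434211-103440239 on the plus strand of GRCm38), a small mitochondrial and membrane protein, was at 344, 404, 299.5 and 385 CPM with vehicle and at 89.1, 79.4, 80.4 and 93.6 CPM with CIX (log2 fold change -2.08, SE 0.12, limma-voom adjusted p = 4.27e-05). Levels in 67NR were 125, 134, 124 and 113 CPM with vehicle and 86.7, 86.5, 67.8 and 84.8 CPM with CIX, without overlap. The CIX treated samples of both lines overlapped. Lgals3bp (ENSMUSG00000033880, chr11:118392751-118402092 on the minus strand of GRCm38), a secreted galectin-3 binding protein, was at 229, 242, 191 and 273 CPM with vehicle and at 74.6, 62.7, 64.6 and 55.7 CPM with CIX in 4T1 (log2 fold change -1.87, SE 0.14, limma-voom adjusted p = 4.47e-05). Its 67NR groups overlapped, at 43.1 ± 7.59 and 37.8 ± 3.74 CPM (SD, n = 4 each).

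Ddx60 (ENSMUSG00000037921, chr8:61928087-62038244 on the plus strand of GRCm38), a helicase that assists RIG-I, was at 16.7, 15.1, 11.4 and 19.8 CPM with vehicle and at 0.808, 0.987, 1.04 and 2.66 CPM with CIX in 4T1, with CIX sample 16 above the other CIX samples. It fell by 3.66 on the log2 scale (SE 0.35, limma-voom adjusted p = 0.000108). In 67NR Ddx60 had 0 or 1 count per sample. Rtp4 (ENSMUSG00000033355, chr16:23520291-23614222 on the plus strand of GRCm38), a chaperone of receptors, was at 43.2, 37.6, 45.7 and 58.1 CPM with vehicle and at 3.52, 2.32, 5.83 and 4.59 CPM with CIX in 4T1 (log2 fold change -3.56, SE 0.27, limma-voom adjusted p = 4.55e-05), and it lay between 1.11 and 1.82 CPM in 67NR. Rtp4 shares 12.5% of its 31-base words with another gene, Isg15 12.8%, Herc6 13.8%, Trim30a 11.7% and Ifit1 10.5%, which leaves their exact levels uncertain to that extent.

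Xaf1 (ENSMUSG00000040483, chr11:72301629-72313733 on the plus strand of GRCm38), a partner of the apoptosis inhibitor XIAP, was at 48.8, 36.8, 36.4 and 56.1 CPM with vehicle and at 3.64, 3.86, 3.58 and 4.87 CPM with CIX in 4T1 (log2 fold change -3.48, SE 0.23, limma-voom adjusted p = 4.27e-05). Levels in 67NR were 22.7, 18.6, 15.5 and 22.4 CPM with vehicle and 21.4, 13.9, 15.2 and 20.7 CPM with CIX, with overlap. Xaf1 was thus higher in 4T1 than in 67NR under vehicle and lower under CIX, and both differences passed the threshold (log2 1.15 and -2.15, limma-voom adjusted p = 0.000548 and 1.59e-05). The former held in only 3 of 8 fits with 1 sample omitted (limma-voom adjusted p = 0.00101 to 0.00198 where lost) and the latter in 8 of 8. Samd9l and Ifi35 also fell in 4T1, with log2 fold changes of -2.81 and -1.43, the latter called in 6 of 8 such fits. Ifi44 had the most negative log2 fold change of all members in 4T1, -4.57, at 28.7, 11.0, 13.3 and 39.0 CPM with vehicle and 1.01, 0.257, 0.644 and 2.90 CPM with CIX, and it did not pass (SE 0.76, limma-voom adjusted p = 0.00138). Epsti1, Sp100, Tor3a, Shisa5 and Lgals9 did not pass, with log2 fold changes of -1.94, -1.75, -0.53, -0.34 and -0.13. For Lgals9, or galectin-9, the 95% confidence interval was -0.82 to 0.55. Ifi27l2a was not tested in 4T1, with 6 to 36 counts per sample.

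The 4 vehicle treated 4T1 samples differed from each other in these genes. Sample 15 was the highest of the 4 in 29 of the 40 tested members and in 23.2% of all tested genes, and sample 11 was the lowest in 25 of the 40 and in 30.5% of all genes. Among the tested members, the highest sample was 4.20 times the lowest in Trim30a, 3.80 times in Mx2, 3.53 times in Ifi44, 3.49 times in Oas3, 3.47 times in Ifit3 and 3.20 times in Ifit1, whereas it was 1.13 times the lowest in Ifitm2, Ifitm3 and Samhd1 and 1.21 times in Trim21. In 14 of the 40 members, and in 14.5% of all genes, the ratio of highest to lowest exceeded 2 on a scale of CPM + 0.1. The depth was 23579330 in sample 15 and 23486022 in sample 11, and the share of mitochondrial counts was 0.926% in sample 15, 0.601% in sample 3, 0.756% in sample 7 and 0.498% in sample 11. Its part in this order was not tested. Without vehicle sample 15 the median log2 fold change of the members in 4T1 was -1.69, and 18 of them were called, all lower, as were 1.38% of all genes.

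**Figure D4:**
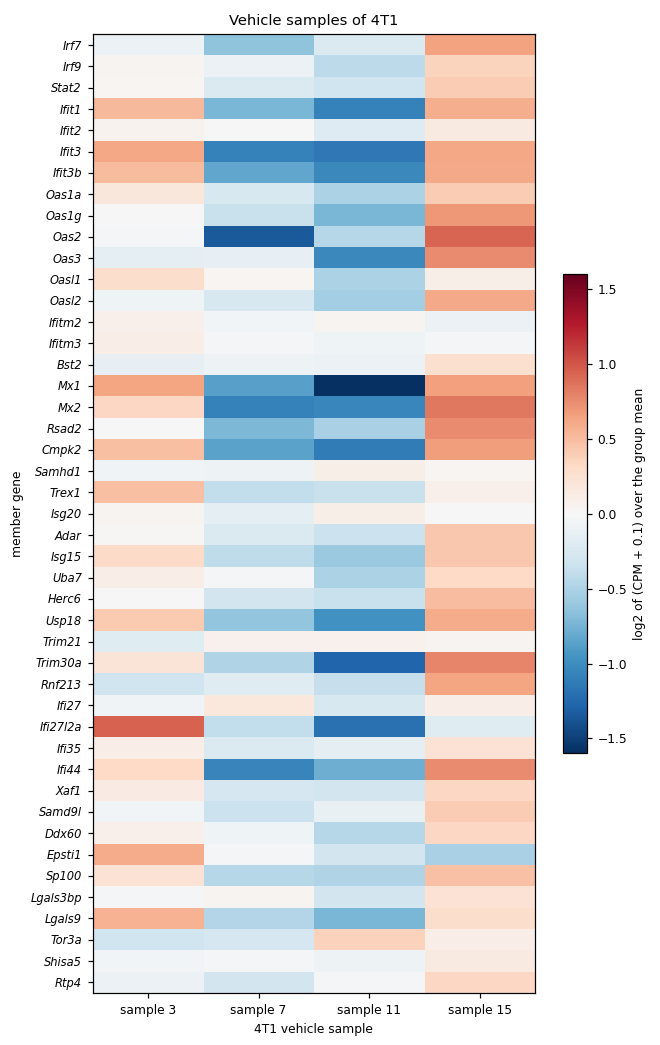
Level of each of the 45 genes (rows) in the 4 vehicle treated samples of 4T1 (columns), as the log2 of CPM + 0.1 over the mean of the 4 samples (color). Ifit1, Ifit3, Ifit3b, Mx1, Mx2, Cmpk2, Usp18 and Ifi44 are above the mean in samples 3 and 15 and below it in samples 7 and 11, and Ifitm3, Samhd1, Isg20 and Shisa5 are near it throughout.

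In 67NR cells 31 of the 45 genes were tested, and 0 were called with limma-voom (0.207% of all 11583 genes fell and 0.181% rose). Their median log2 fold change was -0.29, with 23 negative and 8 positive values from -1.51 for Ifit3 to 0.62 for Tor3a, and that of all genes was -0.01. Tor3a was at 32.0, 40.2, 31.2 and 105 CPM with vehicle and at 80.5, 62.4, 74.2 and 65.3 CPM with CIX in 67NR, where vehicle sample 13 stood apart from the others. Without that sample every CIX sample was above every vehicle sample. The interaction of Tor3a was then called (log2 -1.56, limma-voom adjusted p = 0.000564), as was its difference between lines under vehicle (log2 2.01, limma-voom adjusted p = 4.12e-05). At an unadjusted p-value below 0.05, 13 were lower and 2 higher, as compared to 16.9% and 15.9% of all genes. At an adjusted p-value below 0.05, 11 were lower and 2, Stat2 and Shisa5, were higher (9.25% and 8.5% of all genes). The samples of both groups did not overlap in 13 members with lower and 2 with higher levels after CIX, as compared to 10.6% and 12.7% of all genes. edgeR's quasi-likelihood test called 0 (0.397% of all genes in either direction). DESeq2 called 6, of which Ifit2, Ifit3, Ifitm2, Trim21 and Ifi27 were lower and Stat2 higher (4.64% of all genes lower and 4.36% higher). Shisa5, a p53 target of the endoplasmic reticulum, was at 97.2, 108, 114 and 111 CPM with vehicle and at 138, 128, 129 and 132 CPM with CIX, all CIX samples being higher, whereas in 4T1 all CIX samples were lower. Of the 14 genes not tested in 67NR, Irf7, Ifit1, all OAS genes, Mx2, Rsad2, Cmpk2, Ifi44, Ddx60 and Epsti1, 12 averaged below 1 CPM with vehicle, where this depth limits the changes that can be detected.

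The question whether the response to CIX differed between the lines was addressed by the interaction, in which a negative value means a more negative response in 4T1. Of 43 genes tested, 13 were called with a more negative response in 4T1 and 0 with the opposite (3.06% and 4.81% of all 12629 genes). All 13 were among the 28 genes tested in both lines, and of the 10630 genes tested in both lines 3.23% were called with a more negative and 5.56% with a less negative response in 4T1. The median over the 28 genes was -1.25, with 26 negative values, against -0.00367 over the genes tested in both lines. At an adjusted p-value below 0.05, 23 of the 28 were more negative and 0 less negative, as compared to 14.7% and 17.1%. Genes that passed the filter in 1 line alone entered through the line in which they were high, and nothing is read from their interactions. With these, the count at 0.05 was 29 of 43 (14.2% of all genes more negative and 15.1% less negative). For the 12 of them that were not tested in 67NR, the standard errors ranged from 0.62 to 1.78 and 0 were called at 0.001.

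The largest called interactions were those of Rtp4 (-3.35, SE 0.45, limma-voom adjusted p = 7.60e-05), Xaf1 (-3.31, SE 0.31, limma-voom adjusted p = 5.16e-06) and Isg15 (-3.22, SE 0.46, limma-voom adjusted p = 0.000121). Samd9l followed with -2.86 (SE 0.42), Trim21 with -2.03 (SE 0.21), Lgals3bp with -1.68 (SE 0.20), Ifi27 with -1.45 (SE 0.15) and Stat2 with -1.40 (SE 0.22). Bst2 was at -1.10 (SE 0.16), Ifi35 at -1.09 (SE 0.19), Ifitm3 at -0.81 (SE 0.10), Samhd1 at -0.73 (SE 0.11) and Shisa5 at -0.63 (SE 0.11). Of these 13, 11 held in each of 16 fits with 1 sample omitted, Ifi35 in 3 and Shisa5 in 2. The intervals of Ifit2, Ifitm2 and Lgals9 included 0, and that of Lgals9 was -0.50 to 0.96.

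**Figure D5:**
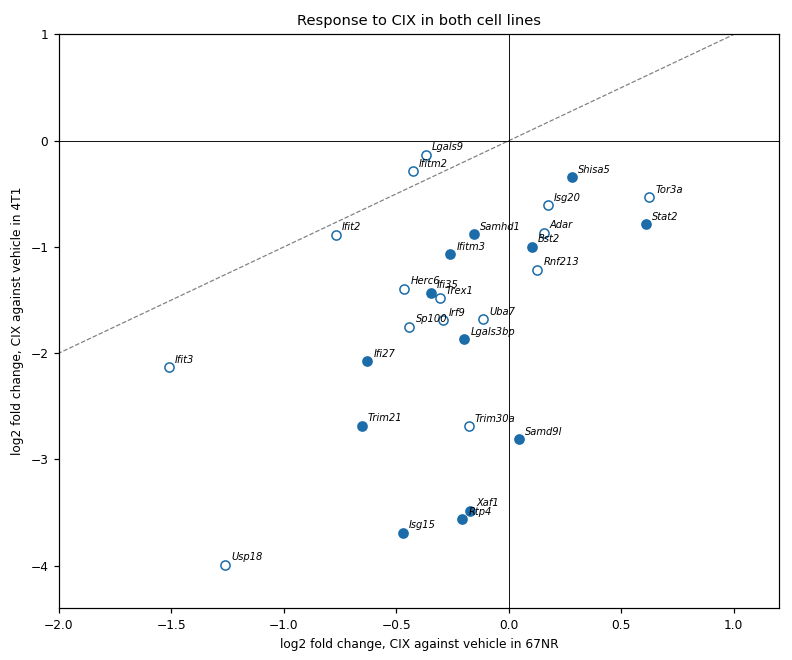
Log2 fold change for CIX against vehicle in 67NR (x axis) and in 4T1 (y axis) for the 28 genes tested in both lines. Filled points passed the interaction test at a limma-voom adjusted p-value of 0.001, and the dashed line marks equal responses. Most points lie far below the line, Ifit2 lies close to it, and Ifitm2 and Lgals9 lie above it.

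Under vehicle, 33 of the 45 genes were tested between the lines, and 21 were higher and 3 lower in 4T1 (20.4% and 19.6% of all 11057 genes). The median log2 difference was 1.50, against -0.01 over all genes. Among the tested genes the largest differences were those of Irf7 (log2 5.61, SE 0.53, limma-voom adjusted p = 1.40e-05) and Rtp4 (log2 4.86, SE 0.26, limma-voom adjusted p = 5.37e-07). The 3 genes lower in 4T1 were Ifi27l2a, a paralog of Ifi27, with 1.48, 0.524, 0.258 and 0.615 CPM in 4T1 and 15.6, 16.9, 16.0 and 14.7 CPM in 67NR (log2 -4.68), Ifit2 (log2 -1.75) and Ifitm2 (log2 -0.55). The 12 members that were not tested here, all OAS genes, Mx2, Rsad2, Cmpk2, Ifi44, Ddx60 and Epsti1, averaged below 1 CPM in 67NR and were higher in each 4T1 vehicle sample than in any 67NR vehicle sample. For Cmpk2 the difference was at least 557-fold, beyond those of Irf7 and Rtp4. Without the filter all 45 were tested, of which 33 were called higher and 3 lower (14.5% and 14% of all 22724 genes).

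Under CIX, 15 of the 45 genes were not tested between the lines, namely all OAS genes, Ifit1, Ifit3b, Mx1, Mx2, Rsad2, Cmpk2, Ifi44, Ddx60 and Epsti1. Of the 30 genes tested, 6 were higher and 4 lower in 4T1 (18.3% and 15.9% of all 10948 genes). These shares were near those of the members, so no result is read from the count. The median log2 difference was 0.25 (0.16 to 0.42 with 1 sample omitted), with that of all genes at 0.00345. All 30 were also tested under vehicle, and in 28 of them the log2 difference of 4T1 against 67NR was less positive or more negative under CIX. Of the tested genes, those called higher in 4T1 were Irf7 (log2 3.10), Irf9 (1.81), Isg20 (1.40), Ifitm3 (1.26), Bst2 (1.17) and Lgals3bp (0.76), and those lower were Ifi27l2a (-4.93), Trim30a (-3.74), Xaf1 (-2.15) and Ifit2 (-1.86). For Isg15 (log2 -0.05, 95% confidence interval -0.53 to 0.43) and Ifi27 (0.07, -0.16 to 0.31) no difference between CIX treated lines was detected. Without 67NR CIX sample 2, 36 members were tested, of which 12 were called higher and 4 lower (18.7% and 13% of all genes). The members added were Oas1a, Oas1g, Oas3, Oasl1, Oasl2 and Rsad2. They passed the filter through 4T1, where they were high, so nothing is read from this rise. Without the filter all 45 were tested under CIX, of which 17 were called higher and 6 lower (13.6% and 12.2% of all 22303 genes). All 6 OAS genes, Mx2, Rsad2, Cmpk2, Ddx60 and Epsti1 were then called higher in 4T1, and Mx1 and Ifit3b lower. Fitted values of genes near 0 counts depend on the prior count, whereas the bounds were at least 137-fold for Oas1g and at least 31.4-fold for Cmpk2 (floor of 3 counts over the 67NR group).

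Other genes of the pathway were described by lists of known genes. Counts of called genes in these lists stand against 3.96% of all tested genes that fell and 5.33% that rose in 4T1. Of 9 receptor and Janus kinase genes tested in 4T1, 1 rose and 0 fell, the receptor subunit Ifnar2, which was at 29.3, 40.8, 32.0 and 36.8 CPM with vehicle and at 71.7, 92.7, 94.5 and 96.8 CPM with CIX (log2 fold change 1.34, SE 0.14, limma-voom adjusted p = 0.000161). Of 11 other STAT and IRF factors, 1 rose and 0 fell, Irf3, which is activated by nucleic acid sensors, with 13.6, 14.9, 17.7 and 17.5 CPM with vehicle and 32.7, 45.2, 35.3 and 44.1 CPM with CIX (log2 fold change 1.28, SE 0.15, limma-voom adjusted p = 0.000298). Ifnar2 and Irf3 were thus higher where Irf7 and Irf9 were lower. Of the 10 tested inhibitors of the pathway, such as the SOCS and PIAS genes, 0 passed the limma-voom test in 4T1. At an adjusted p-value below 0.05, 2 of the 10 were higher, a share near the 21.9% of all genes.

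Of 11 tested nucleic acid sensors and adaptors, 4 fell and 0 rose in 4T1, where 3.96% of all genes fell. Ifih1, or MDA5, was at 121, 101, 79.9 and 133 CPM with vehicle and 22.4, 16.1, 24.3 and 23.3 CPM with CIX (log2 fold change -2.34, SE 0.20, limma-voom adjusted p = 6.71e-05), and was near 0 in 67NR. Tlr3 was at 56.0, 59.4, 55.1 and 69.4 CPM with vehicle and 15.2, 14.7, 11.1 and 13.4 CPM with CIX (log2 fold change -2.17, SE 0.14, limma-voom adjusted p = 4.27e-05). The others that fell were Ddx58 (RIG-I) and Eif2ak2 (PKR). Interferon-inducible GTPases, which attack the vacuoles of parasites, showed the largest changes of these lists, with 5 of 7 tested genes lower and a median log2 fold change of -3.54. Gbp3 was at 29.4, 28.6, 19.6 and 39.5 CPM with vehicle and 1.41, 1.80, 1.00 and 1.61 CPM with CIX (log2 fold change -4.33, limma-voom adjusted p = 5.31e-05), and Igtp at 31.4, 28.2, 26.1 and 43.6 and 3.11, 1.84, 2.65 and 2.74 CPM (log2 fold change -3.65, limma-voom adjusted p = 4.47e-05).

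Of 11 genes of MHC class I presentation, all had negative values in 4T1 (median -0.44, against -0.01 over all genes) and 2 fell (3.96% of all genes), the immunoproteasome subunit Psmb10, from 52.9, 66.9, 76.7 and 66.0 to 22.1, 17.9, 19.6 and 13.1 CPM (log2 fold change -1.88, SE 0.18), and the aminopeptidase Erap1, from 51.7, 63.0, 53.3 and 64.3 to 21.1, 21.4, 24.4 and 25.1 CPM (log2 fold change -1.35, SE 0.12). In 67NR 0 genes of any of these lists were called, where only 0.207% of all genes fell and 0.181% rose. In the interaction, where 3.06% of all genes were called on the negative and 4.81% on the positive side, the 5 GTPases called in 4T1 (Gbp2, Gbp3, Irgm1, Irgm2 and Igtp) were also called, as were Tlr3 and Ddx58 of the sensors and H2-K1 and Psmb10 of the presentation genes, all on the negative side. Irf3 and the inhibitor Pias3 were called on the positive side, with log2 values of 1.25 and 1.02.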

How the data were processed

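RNA was sequenced from 4T1 and 67NR cells, with 4 samples per group that the methods of the study call biological replicates. The authors deposited estimated counts per gene, which they obtained by quasi-alignment of the reads to mouse transcripts (Ensembl, GRCm38) with Salmon (version 0.12 per the submitters' processing notes) and summed to genes with tximport. All 16 columns were mapped to a sample and 0 were left over. Here these estimated counts were rounded to integers, and TPM was approximated with the mean transcript length of GENCODE vM21, which matched 32911 of 33072 genes. Genes below 1 TPM in more than 3 samples of a comparison were removed, for the interaction where this held in both lines. limma-voom (limma 3.58.1, edgeR 4.0.16, R 4.3.3) with TMM factors was fitted to all remaining genes, and a Benjamini-Hochberg adjusted p-value under 0.001 made a call. edgeR's quasi-likelihood test, DESeq2 1.42.0, other scalings and filters, sample weights, a joint fit and the omission of each sample were the alternatives. Replicate samples all differed beyond sampling noise. limma-voom, edgeR and DESeq2 were run on simulated counts for CIX against vehicle in 4T1 only. The interaction and the other comparisons were not simulated. Values per sample were planned for the signalling factors, the 2 most abundant members of each role, the called members with the 3 largest changes and the 2 largest changes of each pathway list, and other members were named to account for all 45. The members and lists were chosen with earlier results of these data known. Ambiguity between genes was measured as the share of 31-base words of a gene's transcripts that occur in another gene.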

Additional observations from a re-analysis of the deposited data

Results flagged for a closer look

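In 14 of 200 groups of 4 samples a single sample lay apart from the others by Dixon's criterion, where chance alone flags about 1 in 20, or 10 of 200. Among vehicle treated 4T1 cells, sample 15 had 121 CPM of Bst2 (others 92.4 to 95.9) and 467 CPM of Rnf213 (others 233 to 262), and sample 3 had 20.7 CPM of Trim21 (others 24.4 to 25.0). Among CIX treated 4T1 cells, sample 4 had 203 CPM of Ifitm2 (others 156 to 162), 28.8 CPM of Ifi35 (others 19.8 to 20.7) and 71.7 CPM of Ifnar2 (others 92.7 to 96.8), and sample 16 had 2.66 CPM of Ddx60 (others 0.808 to 1.04). Vehicle treated 67NR sample 13 had 105 CPM of Tor3a (others 31.2 to 40.2) and 2.51 CPM of Usp18 (others 0.832 to 1.07), and sample 9 had 0.317 CPM of Rsad2, which is 8 counts where the others had 0. Of the CIX treated 67NR samples, sample 2 had 5.12 CPM of Ifit3b (others 3.74 to 3.84) and 0.270 CPM of Oasl1, which is 7 counts where the others had 0. Sample 10 had 67.8 CPM of Ifi27 (others 84.8 to 86.7) and 0.364 CPM of Rsad2, which is 8 counts against 0 in the others.

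The response to CIX differed between 4T1 and 67NR for 13 of 43 tested members by the interaction term of limma-voom, all negative. Of all genes, 3.06% were called negative and 4.81% positive. The calls of Ifi35 and Shisa5 held in only 3 and 2 of 16 fits with 1 sample omitted. The log2 differences were -3.35 for Rtp4, -3.31 for Xaf1, -3.22 for Isg15, -2.86 for Samd9l, -2.03 for Trim21, -1.68 for Lgals3bp, -1.45 for Ifi27, -1.40 for Stat2, -1.10 for Bst2, -1.09 for Ifi35, -0.81 for Ifitm3, -0.73 for Samhd1 and -0.63 for Shisa5. For Stat2 and Shisa5 all samples moved in opposite directions in the lines. The other 11 had lower levels after CIX in 4T1 in all samples, and in 67NR the groups of Xaf1, Bst2, Samd9l, Lgals3bp and Rtp4 overlapped.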

How the results depend on the processing

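No called value changed its sign under these alternatives, and no scaling moved the median of all genes by more than 0.1 on the log2 scale. In 4T1, 20 members were called by limma-voom (3.96% of all genes lower), as compared to 36 with DESeq2 (12.5%). The count was 35 with all 16 samples in one fit (9.76% of all genes lower) and 38 at an adjusted p-value below 0.05 (20.8%). It was 13 to 21 when each sample was omitted, the lowest without CIX sample 8 (1.32%). In 67NR the count was 0 by limma-voom (0.389% of all genes called) and edgeR (0.397%), and 6 with DESeq2 (9%). It was 1 (Ifit2) in the joint fit (1.15%), 2 (Ifit2 and Ifit3) with sample quality weights (2.13%) and 13 at 0.05 (17.8%). When samples were omitted it was 0 to 1 (Ifit3 without CIX sample 2, 0.59% of all genes). For the interaction 13 became 23 with DESeq2 (7.09% of all genes negative and 8.59% positive) and 29 at 0.05 (14.2% and 15.1%). These counts run over all 43 tested members, also those that passed the filter in 1 line alone, from which nothing is read. Of the 28 members tested in both lines, 23 were called at 0.05, all negative (14.7% of such genes negative and 17.1% positive). Between lines under vehicle, the median log2 difference of 1.50 was 2.04 without the filter, 2.07 with filterByExpr, 1.98 in the joint fit and 1.34 to 2.04 when samples were omitted. Under CIX the count was 10 of 30 (34.2% of all genes called, a share near that of the members). It became 23 of 45 without the filter (25.8%), 22 of 43 with filterByExpr (41%) and 21 of 43 in the joint fit (47.1%). At 0.05 it was 20 of 30 (63.9%). In the joint fit and at 0.05 the share of all genes was again near that of the members. On omission of a sample it was 12 (without 4T1 CIX sample 16, 32.2% of all genes) to 16 (without 67NR CIX sample 2, 31.7%). Genes then entered through the line in which they were high, so nothing is read from this rise. The medians were 0.60, 0.50 and 0.50 for these filters and the joint fit and 0.16 to 0.42 on omission, against 0.25. More members were tested with these filters, in the joint fit, on omission of a 67NR vehicle sample under vehicle (44 in place of 33) and on omission of any CIX sample under CIX (32 or 36 in place of 30). The calls in 4T1 that were lost in some fit were Irf7, Bst2, Ifi35, Ifit2, Oas1g, Samhd1 and Usp18, with limma-voom adjusted p-values of 0.00103 to 0.00364 where lost. Between lines, calls under vehicle held in 2 of 8 fits for Herc6, 3 of 8 for Usp18 and Xaf1 and 7 of 8 for Ifitm2 (0.00101 to 0.00269 where lost), and under CIX in 5 of 8 for Lgals3bp (0.00118 to 0.00185). No paired analysis was possible because the sample numbers of the groups do not overlap and the labels name no sets. In 67NR, 12 members averaged below 1 CPM under vehicle, where the depth limits what can be detected.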

Other observations

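The OAS genes were too low in 67NR for the test, but Oas3, which makes the longest oligoadenylates, was read in every sample of that line. Its level was 0.831, 0.578, 0.792 and 0.425 CPM with vehicle and 1.31, 1.61, 1.00 and 1.91 CPM with CIX, or 21, 13, 20 and 10 and 34, 39, 22 and 44 counts. Each CIX sample was above each vehicle sample, the opposite of the order in 4T1. Only Oas1a, Stat2 and Shisa5 of the other members had this order in 67NR. Endothelial markers, a list of 3 genes, summed to between 0.845 and 2.69 CPM over all samples.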
